A study of Mus musculus with 6 samples.

Results

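The 6 genes described here, Ltf, Camp, Ngp, Lcn2, Chil3 and Lyz2, encode proteins that neutrophils store in their granules. They were taken as a named list, chosen with earlier results of these data known, by symbol from a table of 24965 genes. All 6 were found in it and passed the filter on low values. Their transcripts were among the most abundant in these libraries. Together they made up 22.6% ± 0.83 (SD, n = 3) of the summed FPKM of WT libraries and 15.7% ± 0.71 (SD, n = 3) of that of Hemgn-/- libraries. FPKM is a count of sequenced fragments divided by the length of the gene and by the size of the library, so it can be compared between genes.

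Neutrophils fill their granules in steps as they mature in the bone marrow. Primary granules are made first and carry myeloperoxidase and serine proteases, secondary granules follow at the myelocyte stage and carry lactoferrin, cathelicidin and lipocalin, and tertiary granules with gelatinase come last. Transcription of the secondary granule genes is known to need the factor C/EBP epsilon, encoded by Cebpe, and their mRNAs decline again in fully mature cells. Lyz2 and Chil3 are less specific, since lysozyme is present in several granule types and both genes are also expressed by monocytes and macrophages.

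RNA was sequenced from donor cells sorted out of the bone marrow of irradiated recipient mice at 6 h after bone marrow transplantation (BMT), with 3 WT and 3 Hemgn-/- libraries. The donors were CD45.2+ C57BL/6 mice, either Hemgn-/- throughout the body, by an allele made with zinc finger nucleases, or their WT littermates. All recipients were CD45.1+ and had received a split dose of 9 Gy, and the study used male and female mice of 8 to 10 weeks. The study's methods name 3 biological replicates of cells from recipient mice. Whether animals were pooled in a library is not given in the sources used here, so p-values measure the spread between these libraries. The sample labels give the sorted cells as CD45.2+ and Lin-Sca-1+, while the design text and the study's methods add c-Kit+, the LSK gate for hematopoietic stem and progenitor cells (HSPCs).

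By the step size of their low FPKM values, libraries held 23667976 to 28897318 fragments. Hemgn, the targeted gene, was at 5.64, 2.96 and 4.68 FPKM in WT and at 0.755, 0.913 and 1.60 FPKM in Hemgn-/- libraries, with no overlap between the groups (log2 fold change −1.37 ± 0.23 SE, limma adjusted p = 0.0114). The libraries did not look like HSPCs alone. The 12 HSPC markers summed to 37.4 to 43.8 FPKM in WT and 45.9 to 54.6 FPKM in Hemgn-/- libraries. Ly6a was at 8.27 to 10.2 FPKM in WT and 11.4 to 17.3 FPKM in Hemgn-/- libraries (log2 fold change 0.58, limma adjusted p = 0.0642). Cd34 was at 7.23 to 8.80 FPKM in WT and 10.8 to 11.9 FPKM in Hemgn-/- libraries. Kit was at 5.50 to 7.24 FPKM, while Mecom did not exceed 0.415 FPKM and Hlf did not exceed 1.08 FPKM. Of the 11 HSPC markers tested 1 was called higher (Cd34) and 0 lower, with 3 higher and 0 lower at an unadjusted p under 0.05 and 2 higher and 0 lower by voom. The 12 mature neutrophil genes summed to 13423 to 18379 FPKM over all libraries, although a Lin- gate is meant to leave granulocytes out. Of 13739 genes tested with limma, 4.37% were called higher in Hemgn-/- (600) and 2.09% lower (287) at a Benjamini-Hochberg adjusted p under 0.05. This split depends on the scaling, since median-ratio scaling gave 340 higher and 386 lower, quantile normalization 368 and 346, and rescaling to the same FPKM total 1059 and 238.

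Most of the 6 genes had lower FPKM in the Hemgn-/- libraries. Ltf, Camp, Ngp, Chil3 and Lyz2 passed the test (5 of 6, against 2.09% of all genes tested called lower), with group means 22.4% to 47.1% lower in Hemgn-/-. Lcn2 did not pass it. The count of 5 came down to 4 or 3 when any 1 library was left out (3 without Hemgn-/- replicate 1 or Hemgn-/- replicate 3), to 3 in eBayes without a trend, to 2 under quantile normalization and to 1 without the filter on low values. None of the 6 was called higher. The median log2 fold change of the 6 genes was −0.68, beside 0.09 over all genes tested. In 5 of 6 genes every Hemgn-/- library lay below every WT library, as was so for 8.18% of all genes tested. At the study's own thresholds, an unadjusted p under 0.05 and a 1.5-fold change, 4 of 6 genes were lower (Ltf, Camp, Ngp and Chil3), against 2.74% of all genes tested. These counts describe genes chosen with earlier results of these data known, so they are no independent support. The 6 genes are also abundant, while all genes tested include low ones, whose changes log2(FPKM + 1) understates. In bulk RNA, fewer cells of a type and less RNA per cell cannot be told apart.

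**Figure D1:**
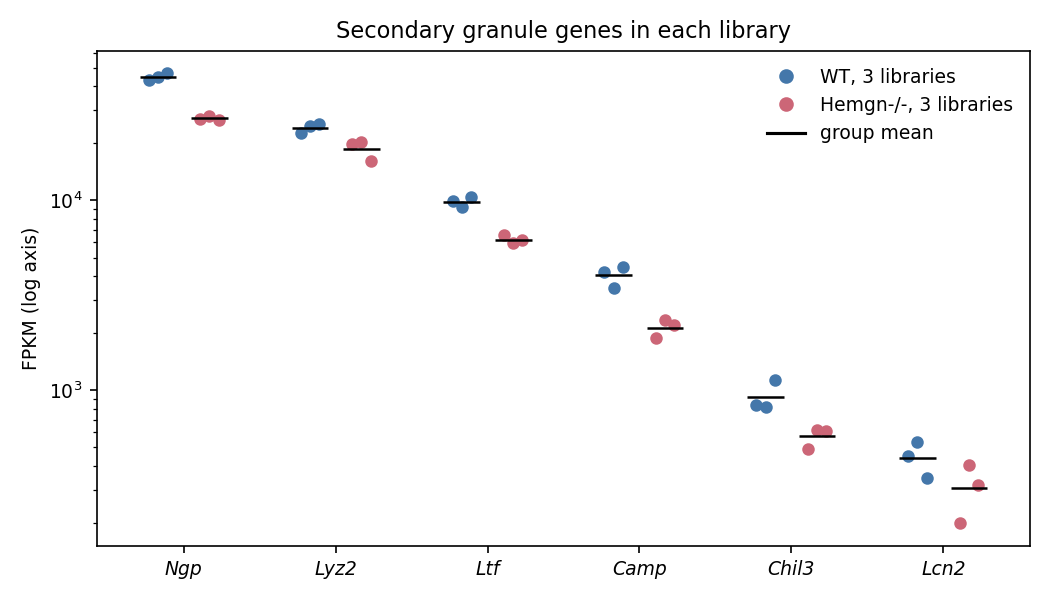
FPKM (log axis) of the 6 genes, ordered by their WT mean, in 3 WT and 3 Hemgn-/- libraries, where each point is a library and each line a group mean. The groups are separate for 5 genes, while for Lcn2 the highest Hemgn-/- library (405 FPKM) lies above the lowest WT library (345 FPKM).

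Ngp, which encodes neutrophilic granule protein, was the most abundant transcript of every library. Its level was 43176, 44761 and 46692 FPKM in WT and 26946, 27961 and 26488 FPKM in Hemgn-/- libraries. The replicates were close to each other, with a coefficient of variation of 3.92% in WT and 2.78% in Hemgn-/-, and the groups were far apart. The mean was 39.5% lower in Hemgn-/- (log2 fold change −0.73 ± 0.05 SE, limma adjusted p = 0.000131). On its own Ngp took 11.7% to 12.5% of the summed FPKM of WT libraries and 7.62% to 7.84% of that of Hemgn-/- libraries.

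Ltf encodes lactoferrin, the iron-binding protein that defines secondary granules. Its level was 9943, 9171 and 10466 FPKM in WT and 6538, 5931 and 6153 FPKM in Hemgn-/- libraries, with no overlap. The mean was 37.0% lower in Hemgn-/- (log2 fold change −0.67 ± 0.06 SE, limma adjusted p = 0.000888). Camp encodes the cathelicidin precursor, from which an antimicrobial peptide is cut after release. It was at 4208, 3441 and 4478 FPKM in WT and at 1881, 2336 and 2196 FPKM in Hemgn-/- libraries. Camp had the lowest log2 fold change of the 6 genes, −0.92 ± 0.11 SE (limma adjusted p = 0.00257), and was called lower under each of 16 processing alternatives. Its mean was 47.1% lower in Hemgn-/- than in WT libraries.

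Chil3 encodes a chitinase-like protein that is also a product of alternatively activated macrophages. It was at 837, 816 and 1128 FPKM in WT and at 492, 616 and 610 FPKM in Hemgn-/- libraries. The WT replicates were uneven, with the third above the other two, yet the groups did not overlap (log2 fold change −0.69 ± 0.13 SE, limma adjusted p = 0.0209). The call of Chil3 was lost without Hemgn-/- replicate 1 (adjusted p = 0.0543) and without Hemgn-/- replicate 3 (adjusted p = 0.0594). Over its 16 alternatives the adjusted p ran from 0.00460 to 0.104.

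Lcn2 encodes lipocalin 2, which withholds iron from bacteria by binding their siderophores. Its level was 449, 533 and 345 FPKM in WT and 200, 405 and 317 FPKM in Hemgn-/- libraries. It was the most variable of the 6 genes, with a coefficient of variation of 21.3% in WT and 33.6% in Hemgn-/-, and the groups overlapped. The log2 fold change was −0.56 with a 95% interval from −1.12 to −0.004, and limma's adjusted p was 0.230. Lcn2 was called under 0 of 16 alternatives, with adjusted p-values from 0.114 to 0.459, so that a difference was not shown at this spread. Leaving out 1 library moved its log2 fold change between −0.79 (without Hemgn-/- replicate 2) and −0.28 (without Hemgn-/- replicate 1).

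Lyz2 encodes lysozyme, which breaks down bacterial cell walls. It was the second most abundant transcript of every library, at 22551, 24553 and 25252 FPKM in WT and 19833, 20204 and 16135 FPKM in Hemgn-/- libraries. The groups did not overlap, but the change was the smallest of the 6 genes (log2 fold change −0.37 ± 0.09 SE, limma adjusted p = 0.0454). The call was close to the threshold and was lost whichever of the 6 libraries was left out, with adjusted p-values from 0.0503 to 0.131. Under 13 of 16 alternatives Lyz2 was not called, and its adjusted p ran from 0.00655 to 1.

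**Figure D2:**
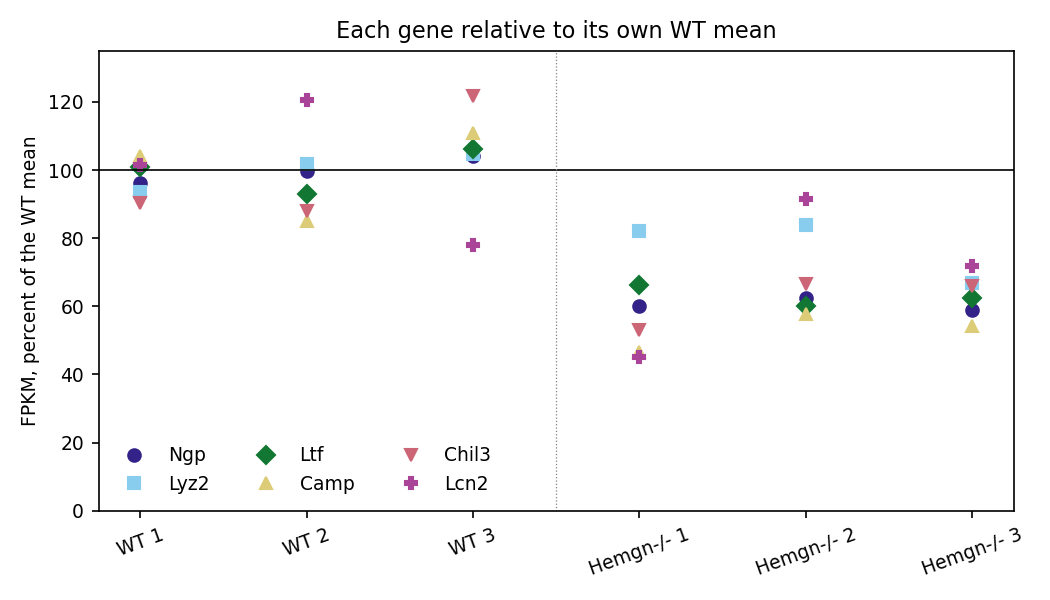
FPKM of each gene in each library as a percent of that gene's WT mean, with the line at 100 marking the WT mean and the dotted line separating the groups. Camp sits lowest in Hemgn-/- replicates 2 and 3, Lyz2 stays above Ngp, Ltf and Camp in all 3 Hemgn-/- libraries, and Lcn2 spreads widely in both groups.

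The share of the library taken by these genes was measured in each library. It was 22.0%, 22.4% and 23.6% of the summed FPKM in WT and 16.3%, 16.0% and 14.9% in Hemgn-/- libraries, so the groups did not overlap. As a share of sequenced fragments, where long genes weigh more, it was 12.2%, 12.4% and 13.3% in WT and 8.43%, 8.51% and 7.83% in Hemgn-/- libraries. Ngp and Lyz2 carried most of the share. Without both of them the other 4 genes took 4.10% ± 0.32 (SD, n = 3) of the summed FPKM in WT and 2.64% ± 0.04 (SD, n = 3) in Hemgn-/- libraries.

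**Figure D3:**
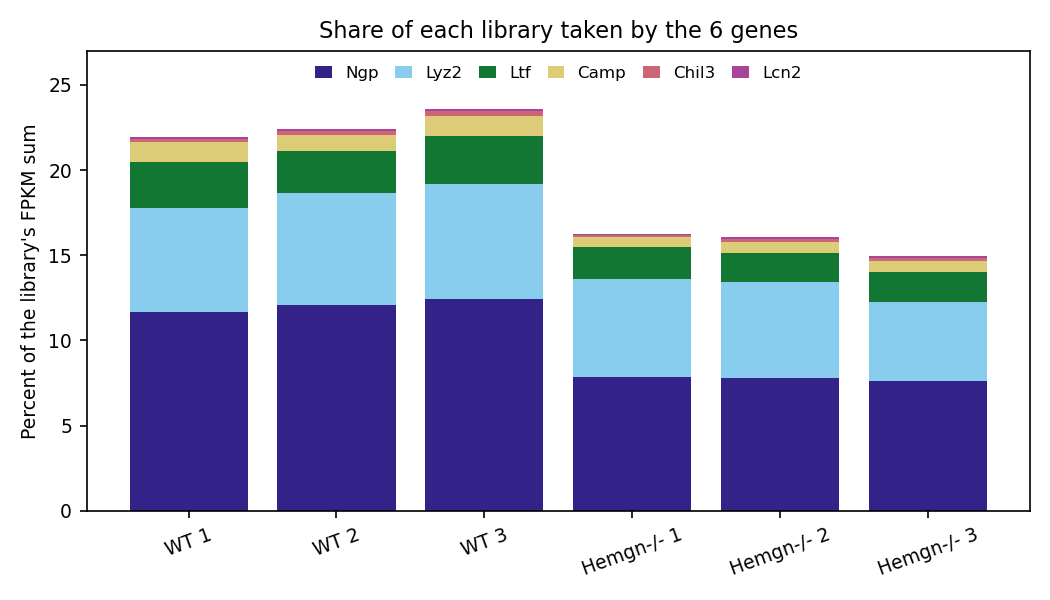
Percent of each library's summed FPKM taken by each of the 6 genes, stacked, in 3 WT and 3 Hemgn-/- libraries. The bars reach 22.0% to 23.6% in WT and 14.9% to 16.3% in Hemgn-/- libraries, and Ngp is the largest block in each.

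A share of this size bears on the other genes, because FPKM divides by the library's total. The genes outside the list summed to 286553 to 288370 FPKM in WT and 287968 to 300733 FPKM in Hemgn-/- libraries. Rescaling every library to the same total of these other genes, an alternative chosen after seeing the data, left all 5 calls in place (log2 fold changes from −0.95 for Camp to −0.41 for Lyz2). That total averaged 287721 FPKM in WT and 294776 FPKM in Hemgn-/- libraries. The rescaling therefore lowers Hemgn-/- values on average and could not have weakened these changes, so it is no check on the calls. The planned rescaling to the same FPKM total left 4 called, without Lyz2 (log2 fold change −0.28, limma adjusted p = 0.0756). Quantile normalization left 2 called.

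The make-up of the share was compared by the genes' ratios. With 3 against 3 libraries no p under 0.1 is possible, so the test could not call any of them. Ngp made up 53.3% ± 0.46 (SD, n = 3) of the summed FPKM of the 6 genes in WT and 49.3% ± 1.52 (SD, n = 3) in Hemgn-/- libraries, while Lyz2 made up 28.6% ± 0.85 and 33.9% ± 2.45 (SD, n = 3 each). The ratio of Ngp to Lyz2 was 1.91, 1.82 and 1.85 in WT and 1.36, 1.38 and 1.64 in Hemgn-/- libraries, and that of Camp to Lyz2 was 0.187, 0.140 and 0.177 against 0.0948, 0.116 and 0.136. Neither ratio overlapped between groups. An exact two-sided permutation test over libraries gave p = 0.1 for each, the smallest that 3 against 3 allows, and 0.35 after adjustment over the 7 ratios tested. The ratio of Ngp to Ltf, 4.56 ± 0.28 in WT and 4.38 ± 0.30 in Hemgn-/- (SD, n = 3 each), overlapped between groups (exact permutation p = 0.5).

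Ltf, Camp and Ngp all lie on chromosome 9 of the mouse genome (GRCm38). Camp is on the minus strand at chr9:109847379-109849617, Ngp on the plus strand at chr9:110419747-110423012 and Ltf on the plus strand at chr9:111019271-111042767, which together span 1195389 bases. The table holds 35 other genes between them, of which 19 passed the filter on low values. Limma called 0 of these 19 (1 lower and 2 higher at an unadjusted p under 0.05), and voom on the recovered fragments also called 0. Their log2 fold changes ran from −0.48 to 0.42 with a median of 0.02, and the highest mean over all 6 libraries among them was 23.6 FPKM. Elsewhere, Lcn2 is at chr2:32384633-32388252, Chil3 at chr3:106147554-106167564 and Lyz2 at chr10:117277331-117282321, all on the minus strand.

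The factors known to act on granule genes were read from the same libraries. Cebpe was at 71.0, 91.6 and 87.2 FPKM in WT and at 35.0, 34.6 and 31.5 FPKM in Hemgn-/- libraries. The groups were well apart and Cebpe fell (log2 fold change −1.27 ± 0.11 SE, limma adjusted p = 0.000364). Spi1, which encodes PU.1, was at 179, 335 and 220 FPKM in WT and at 150, 115 and 91.8 FPKM in Hemgn-/- libraries (log2 fold change −1.01 ± 0.24 SE, adjusted p = 0.0399). Of 7 granulocyte transcription factors tested, these 2 were called lower and none higher, and the median log2 fold change was −0.47. Leaving out any of WT replicate 2, WT replicate 3, Hemgn-/- replicate 2 or Hemgn-/- replicate 3 left 1 called. Of the 2, Spi1 was closer to the threshold, and WT replicate 2 stood above the other WT libraries in it. Cebpd was not called (log2 fold change −1.65 ± 0.68 SE, limma adjusted p = 0.204), although its groups did not overlap. WT replicate 2 stood apart in it (38.3 FPKM, with 4.97 and 3.53 FPKM in the other WT libraries). The Hemgn-/- libraries were at 2.54, 2.29 and 1.94 FPKM. Runx1, with means of 9.35 FPKM over WT and 9.42 FPKM over Hemgn-/- libraries, had a log2 fold change of 0.01.

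The promoters of the 6 genes were searched on both strands for the letters TTNNGNAA of a C/EBP site and AGGAAG of a PU.1 site. The window was the 250 bases before the RefSeq start, which RefSeq gave for all 6 genes. The C/EBP letters stood in the promoters of Ltf (2 matches), Ngp (3), Lcn2 (1), Chil3 (3) and Lyz2 (1) but not of Camp, and in 36.8% of 32851 mouse promoters of this length. The PU.1 letters stood in those of Ltf (1), Camp (2), Lcn2 (3), Chil3 (1) and Lyz2 (2) but not of Ngp, and in 29.5% of all promoters. By the GENCODE M21 annotation, which starts some of these genes further upstream, 250 of the 250 bases of this window lie inside the gene for Lcn2, 161 for Camp, 61 for Ngp, 49 for Lyz2, 21 for Ltf and 0 for Chil3. TATAAA stood in none of the 6 and in 12.4% of all promoters. A match is only a stretch of letters, and binding was not measured in these data. Whether the levels of Cebpe or Spi1 bear on those of the 6 genes was not tested.

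The promoters of Ltf, Ngp and Chil3 are shown because each holds more than 1 C/EBP match, in capitals. They come from RefSeq (GRCm38.p6), are written 5′ to 3′ on the gene's strand, and stop before the start of the gene in the GENCODE M21 annotation, which for Ngp leaves out 1 of its matches. They are chr9:111019042-111019270 on the plus strand for Ltf, chr9:110419558-110419746 on the plus strand for Ngp and chr3:106167565-106167814 on the minus strand for Chil3.
Ltf: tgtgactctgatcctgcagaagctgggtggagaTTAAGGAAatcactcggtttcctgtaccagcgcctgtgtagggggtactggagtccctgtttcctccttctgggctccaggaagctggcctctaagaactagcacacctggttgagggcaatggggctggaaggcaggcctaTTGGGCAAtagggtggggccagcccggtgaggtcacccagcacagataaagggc
Ngp: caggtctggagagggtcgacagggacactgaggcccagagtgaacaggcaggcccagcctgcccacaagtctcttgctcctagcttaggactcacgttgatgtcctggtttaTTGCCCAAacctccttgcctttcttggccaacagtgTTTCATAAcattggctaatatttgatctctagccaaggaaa
Chil3: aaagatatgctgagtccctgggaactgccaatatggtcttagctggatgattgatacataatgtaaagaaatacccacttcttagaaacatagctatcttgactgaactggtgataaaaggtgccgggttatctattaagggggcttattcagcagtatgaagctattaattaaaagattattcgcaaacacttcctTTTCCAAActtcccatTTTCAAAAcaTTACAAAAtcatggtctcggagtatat
Counted from the RefSeq start, with −1 as the base before it, the matches begin at −217 and −75 in Ltf, at −138 and −102 in Ngp and at −53, −37 and −27 in Chil3.

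Other proteins of secondary and tertiary granules did not all follow the 6 genes. Of 13 tested, 3 were called lower and 0 higher, and their median log2 fold change was −0.06. Cd177, a surface protein that is stored in secondary granules, fell (1966 ± 121 FPKM in WT and 1378 ± 46.7 FPKM in Hemgn-/-, SD, n = 3, log2 fold change −0.51, limma adjusted p = 0.00257). Pglyrp1, which binds bacterial peptidoglycan, had a log2 fold change of −0.44 (adjusted p = 0.0491), and Cybb, the catalytic subunit of the NADPH oxidase, one of −0.40 (adjusted p = 0.00531).

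Mmp8, the neutrophil collagenase of secondary granules, was at 2631, 2561 and 2895 FPKM in WT and at 2796, 2628 and 2691 FPKM in Hemgn-/- libraries, so its groups overlapped (log2 fold change 0.01, 95% interval −0.13 to 0.15). Mmp9, the gelatinase of tertiary granules, overlapped as well, with a log2 fold change of 0.08 and an interval from −0.11 to 0.27. Hp, which encodes haptoglobin, had a log2 fold change of −0.06 (adjusted p = 0.533). The summed FPKM of the 6 genes was 31.3 ± 1.07 times that of Mmp8 in WT and 20.4 ± 1.33 times in Hemgn-/- libraries (SD, n = 3 each), with no overlap. By another tool, voom on the recovered fragments, 3 of these 13 genes were lower and 1 higher, and at an unadjusted p under 0.05 limma had 6 lower and 2 higher. Without Hemgn-/- replicate 1, limma called 1 of the 13 higher.

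Of 7 primary granule genes tested, 4 were called lower and 1 higher, with a median log2 fold change of −0.37. Elane, which encodes neutrophil elastase, was at 289, 305 and 313 FPKM in WT and at 166, 197 and 185 FPKM in Hemgn-/- libraries (log2 fold change −0.73, limma adjusted p = 0.00148). Mpo, which encodes myeloperoxidase, changed less, with a log2 fold change of −0.31 (adjusted p = 0.0265). Prss57, a serine protease, and Ms4a3, a membrane protein of granulocyte precursors, both had a log2 fold change of −0.76. Ctsc encodes cathepsin C, the enzyme that activates the granule proteases, and it rose (48.4 ± 1.65 FPKM in WT and 76.6 ± 4.66 FPKM in Hemgn-/-, SD, n = 3, log2 fold change 0.65, adjusted p = 0.00222). These genes were far less abundant than the secondary granule genes. The 6 genes summed to 109 ± 1.77 times the primary granule list in WT and 92.9 ± 5.92 times in Hemgn-/- libraries (SD, n = 3 each), and the groups did not overlap. Without WT replicate 1, WT replicate 3 or Hemgn-/- replicate 3, the primary granule genes called lower were 2.

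Genes of mature neutrophils showed a mixed pattern, with 0 of 12 called lower and 4 called higher. Their median log2 fold change was 0.14, beside 0.09 over all genes tested. S100a8 and S100a9, which encode the subunits of calprotectin, had log2 fold changes of −0.33 (adjusted p = 0.170) and −0.19 (adjusted p = 0.452) with overlapping groups. The summed FPKM of the 6 genes was 5.73 ± 0.36 times that of this pair in WT and 4.48 ± 0.90 times in Hemgn-/- libraries (SD, n = 3 each), and these ratios overlapped. Cxcr2, the receptor for neutrophil-attracting chemokines, was at 277, 280 and 275 FPKM in WT and at 423, 412 and 410 FPKM in Hemgn-/- libraries, and rose (log2 fold change 0.58, limma adjusted p = 0.000663). Csf3r, the receptor for G-CSF, Il1b and Clec4d rose as well, by log2 fold changes of 0.37, 0.61 and 0.44. Retnlg had a log2 fold change of 0.10 (adjusted p = 0.456). At an unadjusted p under 0.05 limma had 3 of the 12 lower and 6 higher, and voom called 0 lower and 5 higher. The 3 lower ones were S100a8, Ly6g (log2 fold change −0.36, limma adjusted p = 0.174) and Il1r2 (−0.27, adjusted p = 0.0696). Of these, only Il1r2 had groups that did not overlap. With median-ratio scaling 2 were higher and 1 lower, while 2 were higher without WT replicate 3 or Hemgn-/- replicate 2, 1 was higher without Hemgn-/- replicate 3, and 1 was lower without WT replicate 2.

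**Figure D4:**
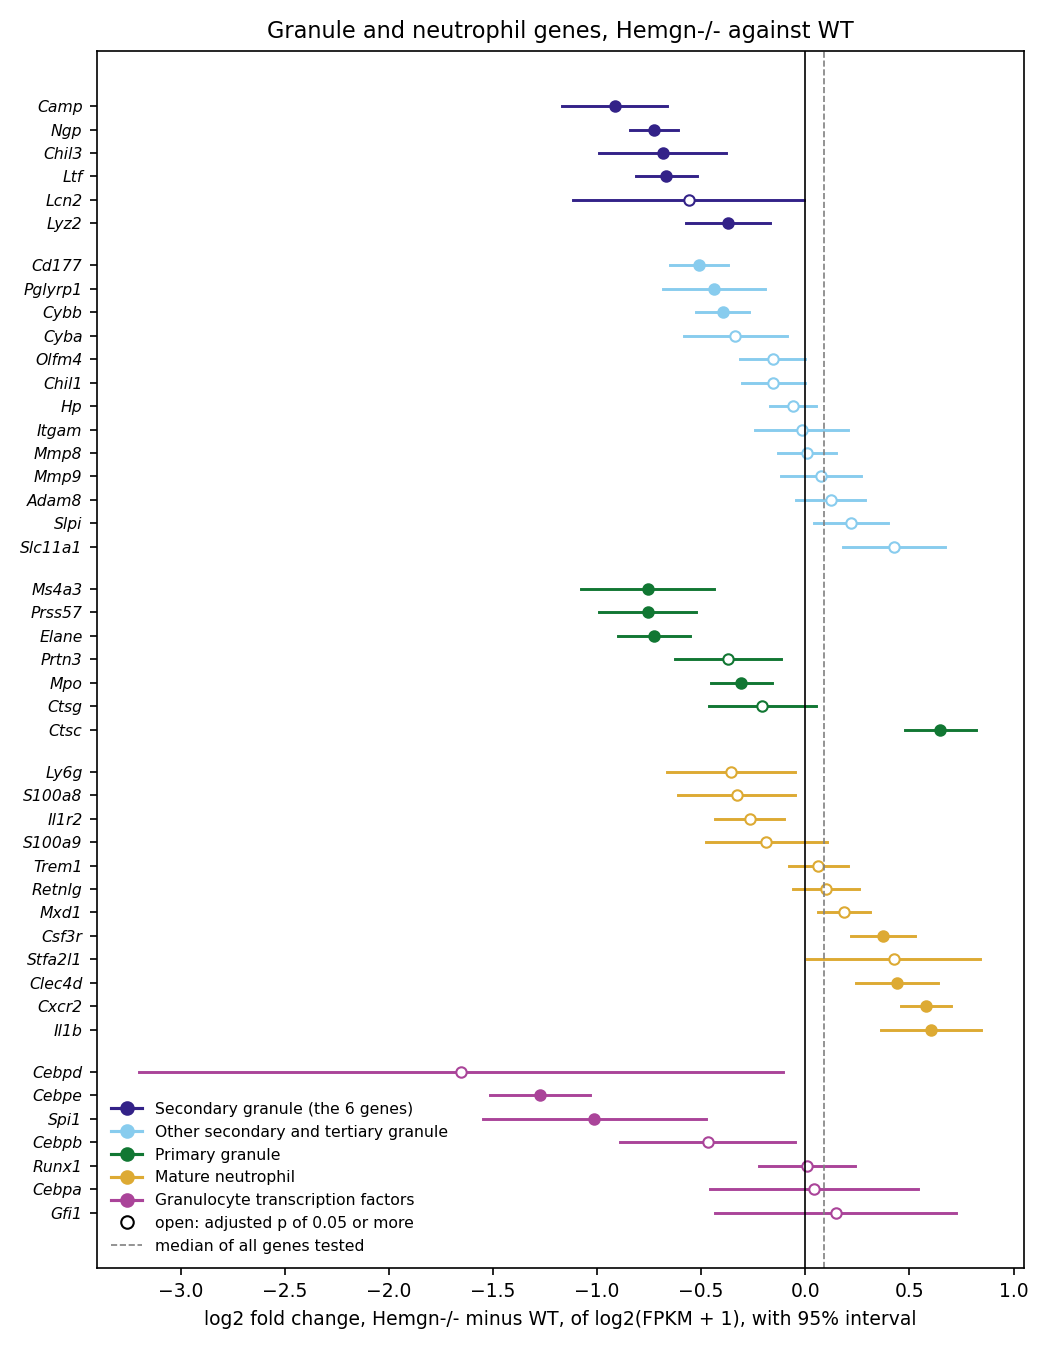
Log2 fold change (Hemgn-/- minus WT, of log2(FPKM + 1)) with its 95% interval from limma for the genes tested in 5 lists, where filled points have an adjusted p under 0.05 and the dashed line is the median of all genes tested (0.09). The 6 secondary granule genes lie between −0.92 and −0.37, while Mmp8 and Mmp9 lie near 0 and Cxcr2 and Il1b lie above it.

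Genes of similar sequence or of shared function were few at these levels. Lyz1, the near copy of Lyz2, was at 5.51 to 7.10 FPKM, far below Lyz2. How the counting split reads between such copies was not tested. Chil4, the near copy of Chil3, had a mean of 0.0427 FPKM over the WT libraries and 0.0041 FPKM over the others. Of 3 paralogs and 3 receptors tested, limma called 0 (1 paralog lower and 0 receptors at an unadjusted p under 0.05), and voom called 0. Fpr2, a receptor for cathelicidin peptides, averaged 179 ± 16.4 FPKM over the WT libraries and 165 ± 18.7 FPKM over the Hemgn-/- libraries (SD, n = 3 each, log2 fold change −0.12, adjusted p = 0.546).

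Markers of other cell types moved between the same groups. Of 12 monocyte and macrophage markers, which bear on Lyz2 and Chil3, 6 were called higher and 1 lower in Hemgn-/-. The higher ones were Csf1r, Adgre1, Mpeg1, Ctss, Ms4a6c and F13a1 (log2 fold changes 0.36 to 0.91), and the lower one was C1qb (−0.44). C1qa (−0.42, limma adjusted p = 0.0692) and C1qc (−1.12, adjusted p = 0.0501) were also lower with no overlap, but were not called. At an unadjusted p under 0.05 limma had 3 of the 12 lower and 6 higher, and voom called 1 lower and 5 higher. The summed level of the 12 overlapped (574 to 646 FPKM in WT and 572 to 662 FPKM in Hemgn-/-). Ly6c2, which was not called, weighed most in this sum, with means of 297 FPKM in WT and 251 FPKM in Hemgn-/-. The 10 erythroid markers summed to 490 to 578 FPKM in WT and 58.7 to 78.9 FPKM in Hemgn-/-, with 5 of 8 tested lower, and the 6 eosinophil markers to 269 to 330 FPKM and 67.6 to 83.6 FPKM, with 3 of 6 lower. Ahsp was not in the table. The part of these cells in the differences of the granule genes was not tested.

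The 6 genes varied together over the 6 libraries to different degrees. The Pearson correlation of log2(FPKM + 1) with the mean of the other 5 was 0.971 for Ngp, 0.966 for Camp, 0.913 for Chil3, 0.906 for Ltf, 0.810 for Lyz2 and 0.590 for Lcn2. These values describe 6 libraries of 2 genotypes, so they carry the difference between the groups. Among 6227 genes of at least 5 FPKM outside the lists, those most like the mean of the 6 genes were Igkc (r = 0.999), Krt83 (r = 0.999), Gramd3 (r = 0.998), Tubb5 (r = 0.998) and Cd63-ps (r = 0.996). Igkc, the constant region of immunoglobulin kappa light chains, was at 8519, 8373 and 8752 FPKM in WT and at 4418, 5552 and 4925 FPKM in Hemgn-/- libraries.

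**Figure D5:**
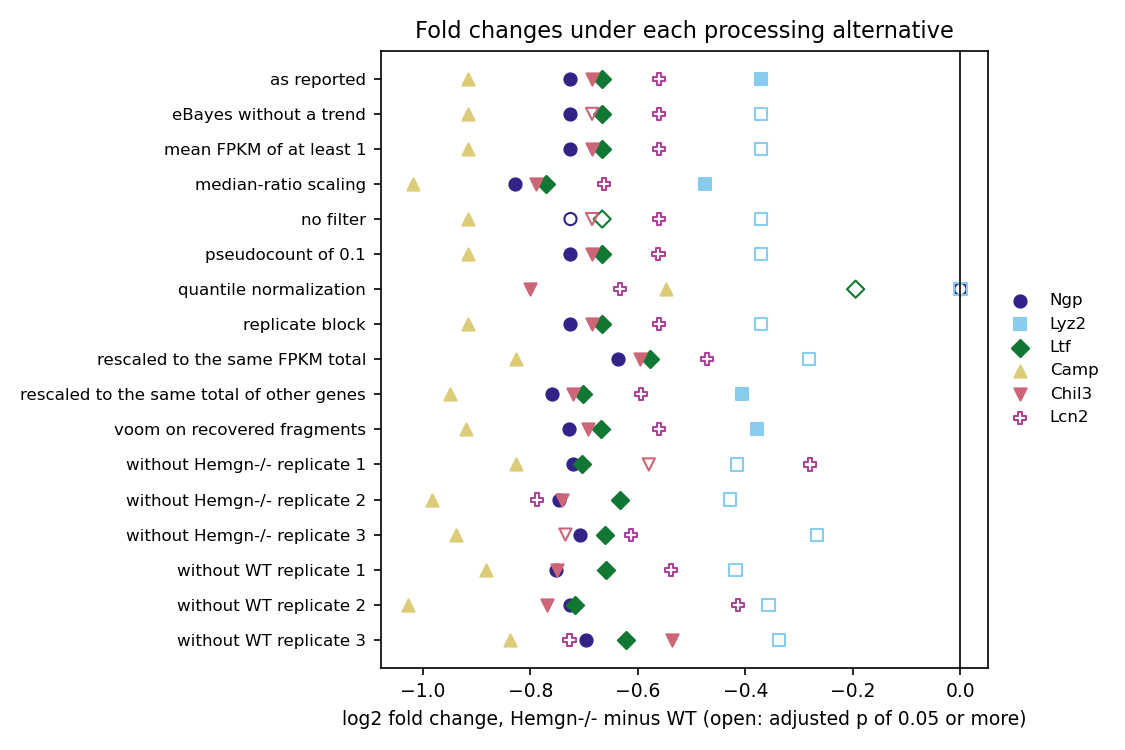
Log2 fold change (Hemgn-/- minus WT) of each of the 6 genes under the reported processing and 16 alternatives, with open points where the adjusted p was 0.05 or more. Quantile normalization set Ngp and Lyz2 to 0, as they are the most abundant and the second most abundant gene of every library, and all other points lie below 0.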

How the data were processed

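RNA of 3 WT and 3 Hemgn-/- samples was measured, grouped by the genotype in the labels. The authors deposited 1 table of FPKM values per gene and library, with no further scaling that the values show. Submitters' processing notes name Bowtie2 2.2.3, HISAT2 2.1.0, TopHat2, HTSeq 0.6.0 and GRCm38, without their roles. The labels give TruSeq libraries and retro-orbital injection, the design text Smart-Seq2 cDNA and tail vein injection. No column was left unmapped. Ensembl identifiers matched GENCODE M21 for 24921 of 24965 genes, which gave symbols and exon lengths. Of 13486 genes with at most 100 fragments, 95.7% were whole numbers of fragments in all libraries (tolerance 0.05), which gave the depth. One fragment on 1 kb was worth 0.0346 to 0.0423 FPKM, and PCR copies make fragments no count of molecules.

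Genes above 1 FPKM in at least 1 library were compared as log2(FPKM + 1) with limma 3.58.1 in R 4.3.3 (lmFit, eBayes with a trend, no covariate), Hemgn-/- minus WT, two-sided, with Benjamini-Hochberg adjustment over 13739 genes. The study's methods gave the filter and the 1.5-fold threshold. The scale understates changes of low genes. Fits were tested on simulated data. Alternatives were another pseudocount, other filters, other scalings, eBayes without a trend, a replicate block, voom on recovered fragments and leaving out each library. Ratios between genes were compared by exact permutation over libraries.

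Named genes are the 6 genes, Hemgn, genes of fixed lists that were called or were among the 4 most abundant of their list, and the 5 genes most correlated with the mean of the 6. Chil4, Kit, Mecom, Hlf, Ahsp, C1qa, C1qc, Ly6g and Il1r2 are list genes named after their values were seen. The genes and lists were chosen with earlier results of these data known. Promoter sequences are RefSeq's (GRCm38.p6).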

Additional observations from a re-analysis of the deposited data

How the results depend on the processing

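Over 16 alternatives Camp was called lower in 16, Ltf and Ngp in 14 each, Chil3 in 12, Lyz2 in 3 and Lcn2 in 0, and each log2 fold change stayed below 0 except those of Ngp and Lyz2 under quantile normalization, which were 0 by construction (adjusted p = 1 each) and where Ltf was −0.20 (adjusted p = 0.200). Without the filter on low values, limma's adjusted p was 0.124 for Ltf (−0.67), 0.104 for Chil3 (−0.69), 0.641 for Lyz2 (−0.37) and 0.403 for Ngp (−0.73), and the cause was not tested. Without a trend in eBayes it was 0.0891 for Chil3 (−0.69) and 0.176 for Lyz2 (−0.37). Lyz2 also lost its call at a mean of at least 1 FPKM (−0.37, adjusted p = 0.0600), with a pseudocount of 0.1 (−0.37, 0.0689), after rescaling to the same FPKM total (−0.28, 0.0756) and with a replicate block (−0.37, 0.0721). Leaving out 1 library gave −0.77 to −0.54 for Chil3, −0.43 to −0.27 for Lyz2, −0.79 to −0.28 for Lcn2 and 3 to 4 of the 6 genes called lower, with 3 without Hemgn-/- replicate 1 or Hemgn-/- replicate 3. The number called lower was 3 without a trend, 1 without the filter and 2 under quantile normalization.

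Genes called higher numbered 237 without a trend, 309 without the filter, 340 with median-ratio scaling, 368 with quantile normalization, 1059 at the same FPKM total and 223 to 451 with 1 library left out. Genes called lower numbered 153, 157, 386, 346, 238 and 150 to 237 in that order. Both counts moved by more than 1.5-fold without WT replicate 1, WT replicate 3 or Hemgn-/- replicate 3, and the higher one also without Hemgn-/- replicate 2. Transcription factors called lower were 1 without a trend, 1 without the filter and 1 to 2 with 1 library left out. Mature neutrophil genes called higher were 1 without a trend, 2 without the filter, 2 with median-ratio scaling and 1 to 4 with 1 library left out, and those called lower were 1 with median-ratio scaling, 1 with quantile normalization and 0 to 1 with 1 library left out. Other secondary and tertiary granule genes called higher were 1 at a mean of at least 1 FPKM, 1 with quantile normalization, 2 at the same FPKM total, 1 by voom and 0 to 1 with 1 library left out, and those called lower were 0 without a trend and 1 without the filter. Primary granule genes called lower were 2 without a trend, 2 without the filter and 2 to 4 with 1 library left out. Against a sum without the 10 most abundant other genes, the share of the 6 genes was 25.5% in WT and 17.5% in Hemgn-/-.

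Replicate numbers are shared between the groups. Over all genes tested, same-numbered libraries did not deviate together (r = −0.04, −0.01 and 0.01 for numbers 1, 2 and 3). Such a correlation cannot exclude a shared sorting or processing day that acts on some genes only. With the replicate block 410 genes were called higher and 226 lower, and 4 of the 6 genes were lower.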
